A study of Homo sapiens with 16 samples.

Results

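The metallothionein genes measured here are MT2A, MT1X, MT1E, MT1F, MT1G, MT1M, MT1A and MT3. They were taken by symbol from tables of sequencing reads per gene, in which they are 8 of 20314 genes for U251 cells and 8 of 20626 for U343 cells. Both are human glioblastoma cell lines grown in culture. Either miR-137 or a control miRNA mimic was transfected at 25 nM, and cells were collected after 48 hours. Each line was profiled by RNASeq, which reads total RNA, and by RIPSeq, which reads RNA immunoprecipitated with antibodies to the poly(A) binding protein (PABP). Each combination of line, assay and transfection held 2 libraries, which makes 16 libraries in 8 groups.

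Metallothioneins are small, cysteine-rich proteins that bind zinc and copper and hold toxic metals such as cadmium. Their genes lie side by side in a cluster, and most are switched on by zinc through MTF1, a transcription factor that binds metal response elements in their promoters. MT2A and several MT1 genes are used in many tissues, while MT3 is known chiefly from brain. Some family members also respond to glucocorticoids, oxidants and cytokines.

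In the hg18 coordinates of the tables, the 8 genes and 6 further metallothionein symbols filled chr16:55156462-55275609, a stretch of 119148 bases that held 14 genes and none from outside the family. MT2A lay at chr16:55199979-55200909, MT1E at chr16:55217086-55218525, MT1F at chr16:55249356-55250716 and MT1X at chr16:55273883-55275609. None of the 14 genes overlapped another gene. Because the genes are near-identical in places and reads were 36 cycles long, counts of one member may hold reads of another; how reads with several matches were counted is not given in the sources used here.

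The sequence of the transfected microRNA is shown because every comparison of mimics turns on it. The mature sequence of hsa-miR-137-3p in RefSeq (GRCh38.p14, chr1:98046091-98046113, minus strand) is given 5′ to 3′ with its seed, bases 2 to 8, in capitals.
hsa-miR-137-3p: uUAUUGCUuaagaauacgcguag

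The promoters of MT2A and MT1X are shown because these genes moved in opposite directions in U251 RNASeq and U343 RIPSeq. RefSeq promoter entries (GRCh38.p14, plus strand, 250 bases before to 50 bases after the start) were found for 2 of the 8 genes. Capitals mark the metal response element core, searched as TGCACNC and TGCGCNC on both strands.
MT2A, chr16:56608334-56608633: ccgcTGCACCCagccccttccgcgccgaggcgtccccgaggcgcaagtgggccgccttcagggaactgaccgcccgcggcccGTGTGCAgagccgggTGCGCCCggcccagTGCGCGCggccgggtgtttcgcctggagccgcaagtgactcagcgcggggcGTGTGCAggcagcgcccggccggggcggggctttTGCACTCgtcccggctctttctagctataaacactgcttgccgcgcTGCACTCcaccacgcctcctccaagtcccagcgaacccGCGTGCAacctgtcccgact
MT1X, chr16:56682220-56682519: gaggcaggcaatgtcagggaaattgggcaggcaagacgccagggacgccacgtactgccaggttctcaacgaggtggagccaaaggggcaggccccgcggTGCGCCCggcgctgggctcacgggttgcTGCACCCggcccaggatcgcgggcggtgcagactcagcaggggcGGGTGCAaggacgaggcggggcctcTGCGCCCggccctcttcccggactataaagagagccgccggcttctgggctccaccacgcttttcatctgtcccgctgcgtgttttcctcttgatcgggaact

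The MT2A promoter held 8 metal response element cores and the MT1X promoter held 4. Of the other metallothionein symbols, MT1H, with at most 2 reads in any library, also held 8, and MT1B and MT4 held 3 each. Of 35116 promoters of the same length, 29.6% held at least 1 core, 0.601% at least 4 and 0.0484% at least 7. The MT2A window also held 1 AP-1 site (TGACTCA, in 4.95% of all promoters) and 1 gamma-interferon activation site (TTCNNNGAA, in 7.66%), and the MT1X window held neither. The interferon-stimulated response element, found in 3.57% of all promoters, was in neither window. These matches describe letters in a window and do not show that a factor was bound.

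Libraries held 10156675 to 45134766 counted reads. Replicates differed most in the 2 U251 RIPSeq controls and the 2 U343 RNASeq miR-137 libraries, with a mean chi-square of 181 and 145 per gene against 2.17 to 18.0 in the other 6 groups, so the values of MT2A and MT1X that rest on them are also given without them. The counts of other gene lists are given with all libraries. U251 libraries were made with random hexamers and U343 libraries with another kit, so that line and kit cannot be told apart. Of 9 glial and glioma markers, all 9 had a median of at least 1 CPM (counts scaled to library size) in U343 and 7 did in U251, where S100B and CHI3L1 were below it. GFAP reached 3.64 to 29.5 CPM in U251 and 3145 to 7370 CPM in U343. Of 11 markers of other cell types, 3 in U343 and 2 in U251 had such a median, and KRT5, a marker of epithelium, reached 328 to 1423 CPM in U343.

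U251 controls used 4 metallothionein genes and U343 controls used 2. In the 2 U251 RNASeq controls, MT2A had 383 and 442 reads, MT1E 507 and 715, MT1X 141 and 182, and MT1F 27 and 28. Per kilobase of genomic span, introns included, MT2A stood at 25.2 ± 1.19 CPM (SD, n = 2) and MT1E at 24.0 ± 4.52, which did not differ beyond their spread. MT1X followed at 5.31 ± 0.670 and MT1F at 1.15 ± 0.0325, each clear of its neighbours in that order. In CPM not divided by length, MT1E (30.0 and 39.2) lay above MT2A (22.7 and 24.3). The standing of MT2A against MT1E thus depends on the length used. In U343 RNASeq controls the levels per kilobase of span were 117 ± 12.2 for MT2A and 6.40 ± 0.230 for MT1X.

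MT1E and MT1F set the lines apart. Both had 0 reads in both U343 RNASeq controls, against 1222 and 55 reads summed over the 2 U251 controls. Against a floor of 3 counts over the group, MT1E was at least 964-fold and MT1F at least 43.4-fold higher in U251. MT2A was higher in U343 by 2.13 on the log2 scale (SE 0.12, adjusted p = 2.82e-07, edgeR's quasi-likelihood test with Benjamini-Hochberg adjustment over all genes tested). MT1X differed by 0.17 (SE 0.15, adjusted p = 0.316). In this comparison 39.9% of all genes tested were lower and 44.9% higher in U343, so a call is common here.

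The other 4 genes were near 0 everywhere. No library held more than 2 reads of MT1G, 3 of MT1M, 2 of MT1A or 9 of MT3, the form known from brain. Summed over the 8 libraries of a line, MT3 had 29 reads in U251 and 31 in U343. None of the 4 passed the filter on low counts in any miR-137 comparison, so changes in them were not detectable at this depth. Counting limits such as the floor cover counting error only. Of the 6 other metallothionein symbols in the tables, MT1IP, a pseudogene, had 29 to 85 reads per U343 library and at most 12 per U251 library, and the other 5 had at most 3.

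**Figure D1:**
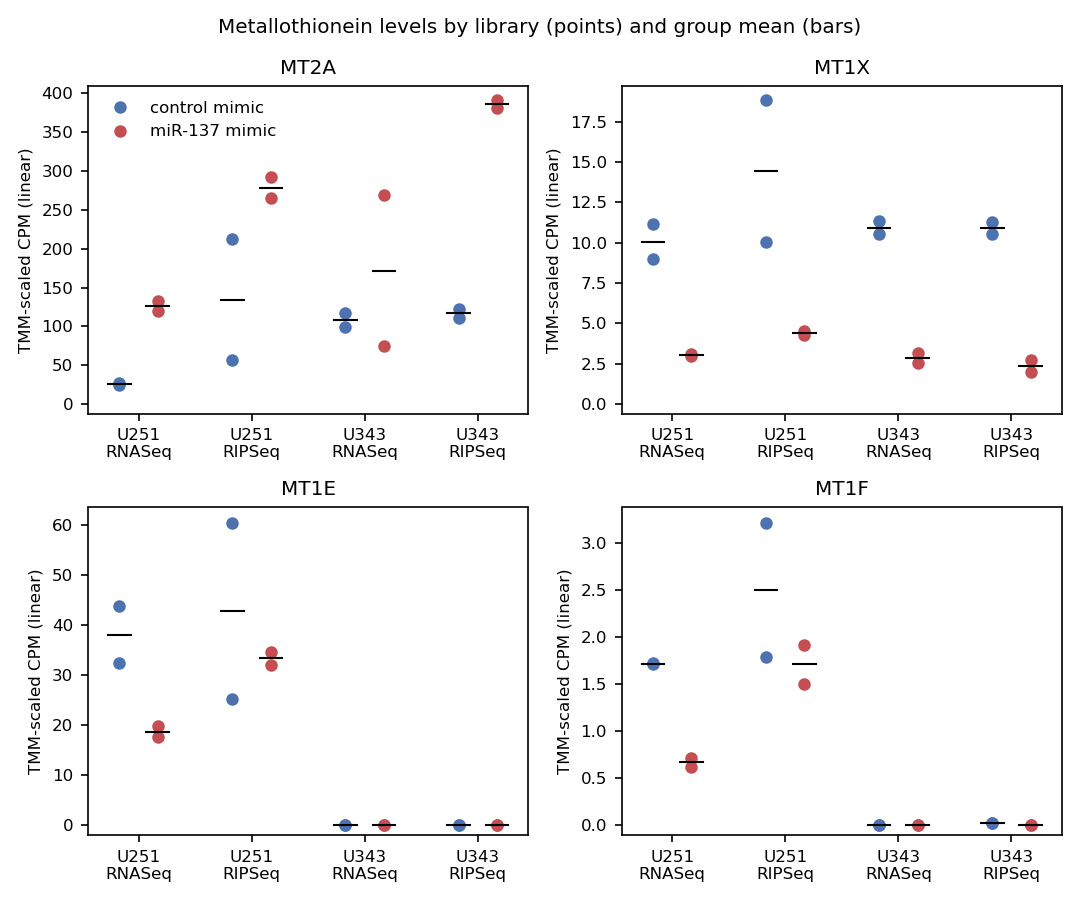
CPM of MT2A, MT1X, MT1E and MT1F, scaled by the trimmed mean of M-values (TMM) within each experiment, on linear axes. Points are libraries, with control mimic in blue and miR-137 mimic in red, and bars are means of 2 libraries; MT1X is lower in the miR-137 libraries of all 4 experiments, while the miR-137 points of MT2A in U343 RNASeq lie on either side of the controls.

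In U251 RNASeq, miR-137 transfection moved MT2A and the MT1 genes in opposite directions. MT2A rose from 24.5 and 27.0 TMM-scaled CPM in controls to 120 and 133 in miR-137 libraries. The groups did not overlap, and the mean was 4.89-fold higher (log2 fold change 2.29, SE 0.14, adjusted p = 2.17e-08). MT1X fell from 9.01 and 11.1 CPM to 2.98 and 3.11, a mean 3.31-fold lower (log2 fold change -1.72, SE 0.22, adjusted p = 2.22e-05). MT1E went from 32.4 and 43.7 CPM to 17.7 and 19.8, 2.03-fold lower, and MT1F from 1.72 and 1.71 to 0.722 and 0.621, 2.56-fold lower. MT1E and MT1F were also called lower, with adjusted p of 0.000175 and 0.00913, and neither gene's groups overlapped. The MT1F values in miR-137 libraries rest on only 8 and 7 reads.

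Thus 1 of the 4 tested members rose and 3 fell, where 28.7% of all 13052 genes tested were called higher and 29.0% lower, so being called is common in this experiment. The call for MT1F was lost with DESeq2 (adjusted p = 0.102), and those for MT1F and MT1E were lost when the 8 U251 libraries were fitted together (adjusted p = 0.0753 and 0.110). That joint fit called 2951 of 14210 genes in either direction, against 7529 of 13052 in the main fit. In bulk RNA, fewer cells with a transcript and less of it per cell cannot be told apart.

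In U251 RIPSeq 0 of the 4 tested members passed the edgeR threshold, in an experiment where 1.21% of 14087 genes did. At an unadjusted p under 0.05 it was 1, MT1X, and DESeq2 also called 1. MT1X, at 18.9 and 10.0 CPM in controls, stood at 4.52 and 4.27 in miR-137 libraries. Its groups did not overlap and its log2 fold change was -1.72 (SE 0.39, adjusted p = 0.126), which was past the threshold with DESeq2 (adjusted p = 0.00489) and in the joint fit of 8 libraries (adjusted p = 0.0105). MT2A had 212 and 56.6 CPM in controls against 265 and 293, with a log2 fold change of 1.05 (SE 0.65, adjusted p = 0.438). MT2A therefore did not overlap either, but its controls were far apart.

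MT1E had 60.4 and 25.3 CPM in the same controls and 32.0 and 34.6 in miR-137 libraries, and MT1F had 3.22 and 1.79 against 1.91 and 1.51, so that both overlapped. Control replicate 1 was the higher of the pair for all 4 genes. The values thus depend on which control is used. Without control replicate 1 the log2 fold changes were 2.30 for MT2A, -1.19 for MT1X and 0.40 for MT1E. Without control replicate 2 they were 0.48, -2.01 and -0.77. MT1X kept its direction under both, and MT1E changed sign. Both fits called far more of all genes than the fit with every library did, with the lone control assumed to vary like the miR-137 libraries.

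In U343 RNASeq, MT1X fell from 10.5 and 11.3 CPM in controls to 2.56 and 3.18 after miR-137 transfection. It was 3.81-fold lower with no overlap (log2 fold change -1.93, SE 0.18, adjusted p = 0.00870), where 11.7% of 15088 genes were called lower. With either control left out its log2 fold change was -1.97 or -1.87, and with either miR-137 library left out it was -1.79 or -2.09. Whether MT1X was called in these fits depended on the library left out, as did the number of all genes called. MT2A had 98.9 and 118 CPM in controls, 75.3 in miR-137 replicate 1 and 269 in miR-137 replicate 2. One miR-137 library was thus below both controls and the other above, and the log2 fold change of 0.67 (SE 0.61) did not pass the test (adjusted p = 0.480), in an experiment that called 8.31% of genes higher. Without miR-137 replicate 1 it was 1.30, and without replicate 2 it was -0.52.

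The gap between these 2 miR-137 libraries was shared by a gene that flanks the cluster. NLRC5, an interferon-inducible activator of MHC class I genes, had 28.2 and 30.2 CPM in the U343 RNASeq controls, 27.3 in miR-137 replicate 1 and 339 in miR-137 replicate 2. MT1X did not follow that split, with 108 and 135 reads in the same libraries. HMOX1, the heme-degrading enzyme, was above its controls of 21.1 and 27.3 CPM in both, at 214 and 536 CPM. The part of either gene in the MT2A values was not tested.

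In U343 RIPSeq both genes passed the test, again in opposite directions. MT2A rose from 122 and 111 CPM to 391 and 382, 3.31-fold higher (log2 fold change 1.73, SE 0.10, adjusted p = 8.54e-06). MT1X fell from 11.3 and 10.5 CPM to 2.72 and 1.97, 4.66-fold lower (log2 fold change -2.22, SE 0.17, adjusted p = 3.82e-05). Neither gene's groups overlapped, and both calls held with each library left out. Across all 14866 genes tested, 28.5% were called higher and 27.8% lower. MT1IP, tested in U343 beside the members, had log2 fold changes of 0.22 in RNASeq and -0.02 in RIPSeq (adjusted p = 0.591 and 0.951).

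**Figure D2:**
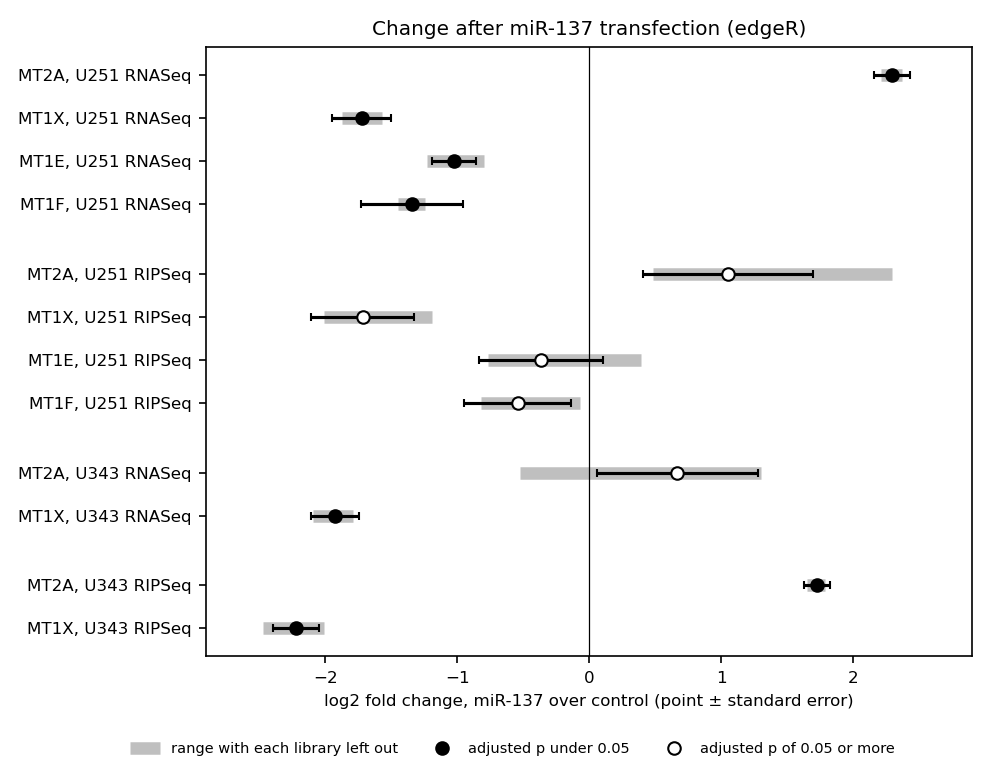
Fitted log2 fold changes of miR-137 over control mimic with standard errors for the members that could be tested, by experiment. Filled points had an adjusted p under 0.05 and grey bars span the values with each library left out; every MT1X bar lies below 0, and the MT2A bar crosses 0 in U343 RNASeq.

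The study's own rule gave a narrower list. It sets each control against each miR-137 library by Fisher's exact test and asks that all 4 pairs have an odds ratio above 2 with an adjusted p below 0.001, and so compares reads of pairs of libraries. By this rule MT1X fell in U251 RNASeq, U343 RNASeq and U343 RIPSeq, where 2.21%, 2.88% and 3.40% of all genes fell. The mirrored rule called MT2A higher in U251 RNASeq and U343 RIPSeq, where 6.14% and 4.83% of all genes rose. No member met it in U251 RIPSeq, where 1.49% of genes fell and 3.47% rose. There the 4 odds ratios of MT1X were 4.22, 4.53, 1.95 and 2.10, so 1 pair fell short of 2. MT1E and MT1F met the rule in no experiment.

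The number of MT2A reads per MT1X read compares the genes within each library, where depth and scaling cancel. In U251 RNASeq it was 2.72 and 2.43 in controls and 40.2 and 42.7 in miR-137 libraries. In U251 RIPSeq it was 11.2 and 5.65 against 58.6 and 68.6. In U343 it went from 9.40 and 10.4 to 29.4 and 84.4 in RNASeq and from 10.9 and 10.6 to 144 and 194 in RIPSeq. The miR-137 libraries lay above both controls in all 4 experiments, including those with libraries that stood apart. A higher ratio does not show that both genes moved in opposite directions. In U343 RNASeq miR-137 replicate 1, with a ratio of 29.4, MT2A and MT1X were both below their controls. The ratio was chosen with the results known and is given as a description, with no test.

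**Figure D3:**
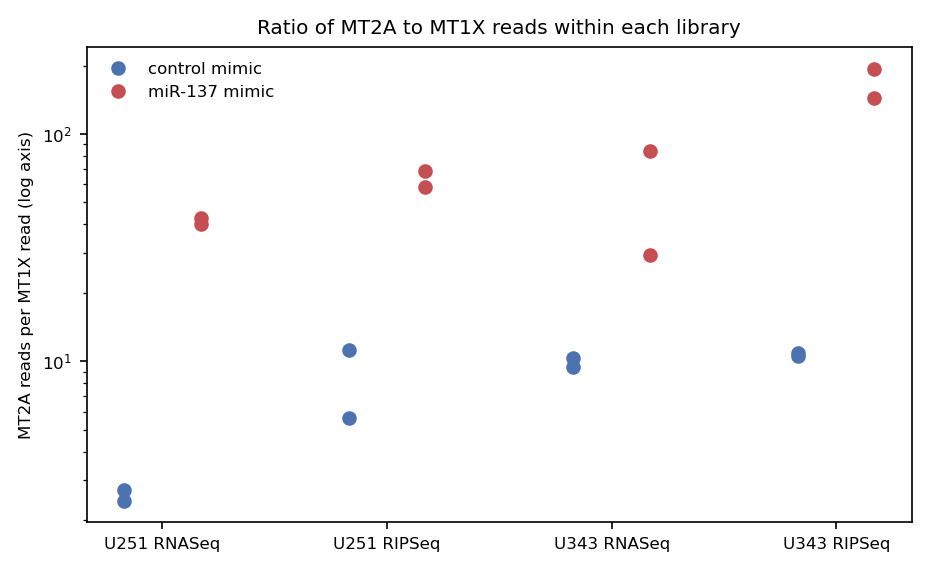
MT2A reads per MT1X read in each of the 16 libraries, on a log axis, with control mimic in blue and miR-137 mimic in red. The lowest miR-137 value, 29.4 in U343 RNASeq, is above the highest control value of any experiment, 11.2.

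The make-up of the family's reads changed with transfection. MT1E held 47.7% and 52.3% of the 8 genes' reads in U251 RNASeq controls and 12.5% and 12.7% after miR-137. MT2A went from 36.1% and 32.3% to 84.8% and 84.9%. In U343, where MT1E and MT1F were near 0, MT2A already held 90.2% to 91.4% in controls and held 96.5% to 99.5% after miR-137. The summed reads of all 8 genes, as CPM without scaling, were 62.9 and 75.1 in U251 RNASeq controls and 152 and 173 after miR-137. In U343 RIPSeq they were 134 and 122 against 381 and 399. The sums overlapped in U343 RNASeq (112 and 129 against 79.0 and 263) and were 308 and 85.4 against 314 and 339 in U251 RIPSeq.

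**Figure D4:**
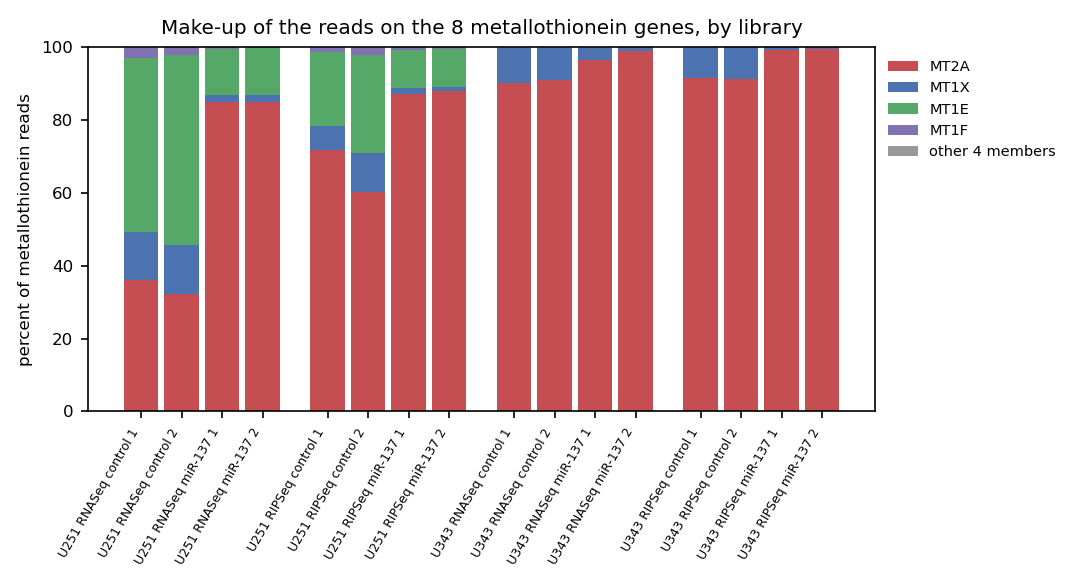
Percent of the reads on the 8 metallothionein genes that each gene held, for each of the 16 libraries. In U251 RNASeq the MT1E share is 47.7% and 52.3% in controls and 12.5% and 12.7% after miR-137, and in U343 nearly all reads are from MT2A and MT1X.

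Whether the response differed between the assays was tested by the interaction of transfection and assay. No member passed it in U251, where 0.134% of 14210 genes did, or in U343, where 0.00649% of 15413 did. For MT2A the response in RIPSeq was smaller than in RNASeq by -1.30 in U251 (SE 0.73, adjusted p = 0.355) and larger by 1.05 in U343 (SE 0.69, adjusted p = 0.472), on the log2 scale. For MT1X the interaction was -0.04 in U251 and -0.29 in U343 (adjusted p = 0.965 and 0.613). The unadjusted p of MT2A was 0.113 and 0.172, and no member was under 0.05. Each interaction includes 1 of the pairs of libraries that stood apart.

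With 1 library of such a pair left out, the interaction of MT2A depended on which library that was. In U251 it was 0.0647 without RIPSeq control replicate 1 and -1.87 without replicate 2. In U343 it was 0.42 without RNASeq miR-137 replicate 1 and 2.23 without replicate 2. MT1X stood at 0.59 and -0.34 in U251 and at -0.44 and -0.15 in U343. MT1E in U251 was 1.48 without RIPSeq control replicate 1 and 0.20 without replicate 2. All 4 fits called more of all genes than with every library, so calls are not read from them.

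Between the lines, the RNASeq response of MT1X differed by -0.21 (SE 0.30, adjusted p = 0.648) and its RIPSeq response by -0.44 (SE 0.47, adjusted p = 0.644), given as U343 minus U251. The RNASeq response of MT2A was lower in U343 by -1.63 (SE 0.65, adjusted p = 0.103). With 1 U343 miR-137 library left out, this difference was -0.99 without replicate 1 and -2.82 without replicate 2. In the same fits MT1X stood at -0.06 and -0.37. In RIPSeq the difference of MT2A was 0.74 (SE 0.73, adjusted p = 0.608). It was -0.54 without U251 control replicate 1 and 1.35 without replicate 2, so that its direction depended on the control used. MT1X in RIPSeq was -0.999 without that replicate 1 and -0.10 without replicate 2. The fits with a library left out called more of all genes than with every library, so calls are not read from them. MT1E was the member called in the RNASeq interaction, where 25.2% of genes were, and that value rests on 0 and 0 reads in U343 controls and 1 and 2 in miR-137 libraries. In RIPSeq 3.28% of genes were called and no member was.

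Comparing the assays within a transfection asks how strongly each transcript was represented with PABP relative to total RNA. Both kinds of library are scaled, so each difference is relative to the average gene and not an amount recovered. In U251 miR-137 libraries all 4 tested members were higher in RIPSeq, where 32.4% of 13655 genes were. The log2 differences were 1.25 for MT2A, 0.94 for MT1E, 1.44 for MT1F and 0.63 for MT1X, with adjusted p of 1.23e-05, 8.00e-05, 0.00527 and 0.0145. The call for MT1X was lost with DESeq2 (adjusted p = 0.0934) and with either RIPSeq library left out. In U251 controls MT2A was higher by 2.56 (SE 0.65, adjusted p = 0.0486), where 7.87% of genes were, with 216 and 54.8 CPM in RIPSeq and 22.0 and 24.1 in RNASeq. That call was lost without the filter on low counts (adjusted p = 0.135) and with either RNASeq control left out. The MT2A difference was 1.25 without RIPSeq control replicate 1 and 3.14 without replicate 2, in fits that called far more of all genes. MT1X, at 0.68 with both (adjusted p = 0.263), was 0.11 and 1.01 in these fits.

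In U343, with all libraries, no member differed between the assays past the threshold or had an unadjusted p under 0.05, in comparisons that called 48.6% of genes in controls and 18.1% in miR-137 libraries. The differences in controls were 0.22 for MT2A (adjusted p = 0.113) and 0.10 for MT1X (adjusted p = 0.452). In miR-137 libraries they were 1.29 for MT2A (adjusted p = 0.197) and -0.17 for MT1X (adjusted p = 0.664). With 1 RNASeq miR-137 library left out, MT2A stood at 0.63 without replicate 1 and 2.45 without replicate 2, and MT1X at -0.34 and -0.05. Both fits called more of all genes than the fit with every library did. The pseudogene MT1IP was lower in RIPSeq in controls by -0.76 (adjusted p = 0.0276).

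The regulators and transporters of zinc did not move as a block with MT2A. MTF1, the metal-sensing factor, rose in U251 RNASeq from 43.7 and 38.0 CPM to 61.9 and 54.4 (log2 fold change 0.51, adjusted p = 0.00624) and in U343 RIPSeq from 8.05 and 6.93 to 9.84 and 10.8 (0.46, adjusted p = 0.0177). It did not pass the test in U251 RIPSeq (0.30, adjusted p = 0.562) or U343 RNASeq (0.01, adjusted p = 0.987). SLC30A1, the zinc exporter and another target of MTF1, rose in U343 RIPSeq (0.65, adjusted p = 0.00247). Its change was 0.07 in U251 RNASeq, 0.86 in U251 RIPSeq and 0.31 in U343 RNASeq (adjusted p = 0.719, 0.273 and 0.237).

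Of the zinc sensing and transport genes tested, 8 of 15 fell and 3 rose in U251 RNASeq, 0 of 18 passed in U251 RIPSeq (1 at an unadjusted p under 0.05), 4 of 17 fell and 2 rose in U343 RNASeq, and 8 of 18 fell and 4 rose in U343 RIPSeq. The shares called were 73.3%, 0%, 35.3% and 66.7%, against 57.7%, 1.21%, 20.0% and 56.3% of all genes tested. Their median log2 fold changes in that order were -0.38, -0.12, -0.04 and -0.24, against 0.02, -0.02, 0.02 and 0.00 over all genes tested. The zinc importers SLC39A9 and SLC39A6 fell in U251 RNASeq by 1.62 and 1.34 on the log2 scale. In U343 SLC39A6 also fell, with log2 fold changes of -0.96 in RNASeq and -1.36 in RIPSeq (adjusted p = 0.0173 and 2.89e-05). SLC39A9 stood there at 0.11 and -0.46 (adjusted p = 0.574 and 0.00360). The importer SLC39A8 fell in U343 by 1.15 in RNASeq and by 1.62 in RIPSeq. It also fell in U251 RNASeq (log2 fold change -0.78, adjusted p = 0.000449). SLC30A3, a zinc transporter of vesicles, had log2 fold changes of -1.08 and -1.44 in U343 RNASeq and RIPSeq (adjusted p = 0.04998 and 0.00128).

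Copper handling genes were called at shares of 33.3% in U251 RNASeq, 7.69% in U343 RNASeq and 53.8% in U343 RIPSeq, against the 57.7%, 20.0% and 56.3% of all genes, with no test of the difference. Of 12 tested in U251 RNASeq, 3 fell and 1 rose, and 0 of 12 passed in U251 RIPSeq, with 1 at an unadjusted p under 0.05. In U343, 1 of 13 rose and 0 fell in RNASeq, and 4 fell and 3 rose in RIPSeq. COX11 and COMMD1 fell in U251 RNASeq by 1.11 and 0.69, CCS, the copper chaperone of SOD1, rose in U343 RNASeq by 0.67, and SCO2 rose by 1.17 and COX17 fell by 0.83 in U343 RIPSeq.

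Oxidative stress targets of NRF2 included genes that fell in U251 and rose in U343. In U251 RNASeq 11 of 15 fell and 3 rose, 93.3% called against 57.7% of all genes, and the list's median was -0.43 on the log2 scale. There TXNRD1, thioredoxin reductase, and FTL, ferritin light chain, fell by 1.81 and 1.62. In U343, 2 of 15 rose and 0 fell in RNASeq, and 6 rose and 0 fell in RIPSeq, with medians of 0.26 and 0.22. The shares called there, 13.3% and 40.0%, were below the 20.0% and 56.3% of all genes. HMOX1 rose there by 3.95 in both assays (adjusted p = 0.0152 and 5.38e-06), and TXNRD1 by 0.78 and 0.62. HMOX1 fell by 0.40 in U251 RNASeq (adjusted p = 0.0147). In U251 RIPSeq 0 of the 15 passed and 1 had an unadjusted p under 0.05. That gene was HMOX1, with 207 and 130 CPM in controls and 381 and 377 in miR-137 libraries, a log2 fold change of 1.17 that lay in the other direction (adjusted p = 0.146). Whether the responses of the list differed between lines was not tested.

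Of the glucocorticoid receptor and its targets, 4 of 9 fell and 3 rose in U251 RNASeq, 0 of 9 passed in U251 RIPSeq (3 at an unadjusted p under 0.05), 1 fell and 1 rose in U343 RNASeq, and 1 fell and 4 rose in U343 RIPSeq. The shares called were 77.8% against 57.7% of all genes in U251 RNASeq, and near those of all genes in U343, with 22.2% against 20.0% in RNASeq and 55.6% against 56.3% in RIPSeq. PER1 rose by 1.58 and CRISPLD2 fell by 2.33 in U251 RNASeq. In U343 RNASeq DUSP1 rose by 1.84 and FKBP5 fell by 0.97. DUSP1 and SGK1 rose by 1.64 and 0.86 in U343 RIPSeq. In U251 RNASeq DUSP1 also rose (log2 fold change 1.47, adjusted p = 6.12e-07) and FKBP5 also fell (-0.90, adjusted p = 0.0167). SGK1 went the other way there and fell (-0.65, adjusted p = 0.000546). In U251 RIPSeq DUSP1 stood at 2.00 (adjusted p = 0.0517).

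The genes that flank the cluster did not share one direction. In U251 RNASeq 5 of 8 fell and 1 rose, in U251 RIPSeq 1 of 9 rose, in U343 RNASeq 1 of 10 fell and 1 rose, and in U343 RIPSeq 3 of 11 fell and 4 rose. The shares called were 75.0%, 11.1%, 20.0% and 63.6%, against 57.7%, 1.21%, 20.0% and 56.3% of all genes. NLRC5 rose by 3.05 in U251 RNASeq, 2.84 in U251 RIPSeq and 3.51 in U343 RIPSeq (adjusted p = 1.48e-09, 0.0354 and 6.34e-07). CPNE2 rose by 1.27 in U343 RNASeq. CETP rose by 3.25 in U343 RIPSeq from 0.0333 CPM in controls.

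The genes whose log2 levels followed the log2 summed level of the 8 metallothioneins most closely were GTPBP1, RBCK1, IGFBP6, ACP2 and LZTS2. Their Pearson correlations, averaged over the 8 libraries of each line, were 0.964, 0.959, 0.953, 0.949 and 0.949 among 13404 genes. MT2A held 84.8% to 99.5% of the summed reads in miR-137 libraries and 32.3% to 91.4% in controls. The sum therefore reflects mainly MT2A and not MT1X, which fell. The 8 points of a line share transfection groups and assays, so these correlations describe a pattern and carry no test.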

How the data were processed

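The authors aligned reads with RMAP to hg18 and deposited whole-number counts per RefSeq gene for each library, with no normalization. Groups followed the line, assay and transfection in the labels. Nothing says that replicates came from separate cultures, so p-values measure the spread between these libraries, which may be technical. An additional U251 replicate that the methods mention was not analysed here. Strand was not used, and antisense reads cannot be told apart.

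Counts were fitted over all genes with edgeR 4.0.16 (quasi-likelihood F test, TMM, filterByExpr) in R 4.3.3, calling genes at a Benjamini-Hochberg adjusted p under 0.05. Comparisons of mimics used the 4 libraries of an experiment, and CPM are scaled within each comparison. The study's rule used two-sided Fisher's exact tests. Alternatives were DESeq2 1.42.0, upper-quartile scaling, other count filters, a replicate block, a joint fit and each library left out. The scripts were tested on simulated data. The members, and the lists of zinc, copper, NRF2, glucocorticoid and flanking genes, were chosen with earlier results of these data known. All 8 members are named, MTF1 and SLC30A1 always, and from each list up to 2 further called genes per comparison with the largest change and 1 direction in all 4 pairs. Values of HMOX1 and NLRC5 by library, and of HMOX1 in U251, were added after their values were seen. So were those of SLC39A6, SLC39A8, SLC39A9, DUSP1, FKBP5 and SGK1 in the line where this choice did not name them. The values of 1 flanking gene are not reported here.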

Additional observations from a re-analysis of the deposited data

Results flagged for a closer look

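The change of MT1E on miR-137 transfection in RNASeq differed between the lines by 4.19 on the log2 scale (U343 minus U251, SE 1.24, adjusted p = 0.0450, edgeR's quasi-likelihood test), which is why it is listed. In U251 MT1E went from 507 and 715 reads to 196 and 223. In U343 it went from 0 and 0 reads to 1 and 2, at or under the floor of 3 counts over each group, so that no fold can be given there and the size of the difference cannot be read as one. The call was absent with DESeq2, without the filter on low counts and in most fits with a library left out.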

How the results depend on the processing

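MT1X had a negative log2 fold change under all 40 alternatives of the 4 comparisons of mimics, and MT2A a positive one under 39 of 40. Of the 8 members, 4 were called in U251 RNASeq, where 7529 of 13052 genes were, and 2 in the joint fit of 8 libraries, where 2951 of 14210 were. In U251 RIPSeq 0 were called, against 1 with DESeq2, the joint fit or the replicate block (MT1X, -1.65, adjusted p = 0.0227). The line interaction in RNASeq called 1 member, 0 with DESeq2 or no low-count filter and 2 under the block, with MT2A at an adjusted p of 0.0492. The U251 control comparison of assays called 1, and 0 without the low-count filter. The study's rule called 0 in U251 RIPSeq and 1 with an odds ratio over 1.5, at least 3 of 4 pairs or TMM-scaled totals. The interaction of MT1X with assay in U251 turned from -0.04 to 0.15 without the low-count filter. The cause of these moves was not tested.

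The number of members called depended on the library left out in U251 RIPSeq, U343 RNASeq and the interactions with assay and line. The same held for the assays in U251 controls, U343 controls and U343 miR-137 libraries. It also held for the study's rule in U251 RIPSeq and U343 RNASeq. In each of these the number of all genes called moved as well, so these calls do not describe the members alone. Direction depended on the library left out for MT1E in U251 RIPSeq (-0.77 to 0.40), MT2A in U343 RNASeq (-0.52 to 1.30), the U251 assay interactions of MT1X (-0.34 to 0.59) and MT2A (-1.87 to 0.0647), the RIPSeq line interaction of MT2A (-0.54 to 1.35), MT1E between assays in U251 controls (-0.47 to 0.77) and MT1X between assays in U343 miR-137 libraries (-0.45 to 0.0493). Without a library, the lone sample is assumed to vary like the other groups. MT1F in U251 RNASeq kept its call in 1 of 4 such fits.

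Replicate numbers are shared between groups, but the labels do not say that they mark a batch, and with 2 pairs the deviations of same-numbered libraries correlated at 0.03 to 0.28. The block is therefore an alternative only, and beside the moves above it changed no count of members called by over 1.5 times.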
